A study of Homo sapiens with 4 samples.

Results

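The interferon-stimulated genes are a set of 49 genes that cells switch on when an interferon, a secreted antiviral cytokine, is sensed. They were described in RNA-seq of H1 cells undergoing hematopoietic differentiation with or without SB431542, a small-molecule inhibitor of TGFβ type I receptors. The members were chosen by gene symbol, and each of the 49 symbols had 1 row among the 58365 rows of the table. The set was taken up after IFI6 and MX1 were known to stand higher with SB431542 in these same libraries, so the genes were in part selected on the contrast described here and their differences are given as a description. By role, 21 members were antiviral effectors, 11 were other effectors, 4 were sensors of viral RNA, 4 were transcription factors and 9 belonged to the ISG15 and ubiquitin-like system.

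H1, a widely used line of human embryonic stem cells (hESCs), was taken through activin A with BMP4 and then VEGF with bFGF, and the last 3 days were run with DMSO, the vehicle, or with SB431542 (SB). Cells were collected at day 8, giving 2 DMSO and 2 SB libraries, numbered 1 and 2 in each group. The labels do not say that the libraries came from separate cultures, so p-values measure only the spread between these samples. The study describes sequencing of CD31+ cells, a step absent from the labels, and the gene of CD31, PECAM1, stood at 197 and 163 FPKM (fragments per kilobase of transcript, scaled to library size) with DMSO and 182 and 153 FPKM with SB.

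The FPKM values of a library summed to between 570844 and 612614, and between 14183 and 14372 genes reached 1 FPKM. The total number of fragments is unknown, and relative depth was estimated at 75.6% to 100% of the deepest library. Pearson's r of log2(FPKM + 1) across tested genes, which are not independent replicates, ranged from 0.935 to 0.964 between libraries, and was 0.960 and 0.964 between DMSO and SB libraries of the same number.

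In the interferon pathway, type I interferons bind a receptor built of IFNAR1 and IFNAR2, and the receptor-bound kinases JAK1 and TYK2 then activate STAT proteins. STAT2 joins IRF9 in a complex that binds a promoter element named the interferon-stimulated response element (ISRE), whereas interferon gamma acts mainly through a gamma-activated site (GAS). Many target genes also keep a basal level without added interferon, and stem cells are known to express part of the set intrinsically.

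Promoter sequences from RefSeq (GRCh38.p14, 250 bases before to 50 bases after a transcript start) were available for 39 of the 49 members, DDX58 under its current symbol RIGI, and the other 10 (OASL, OAS2, IFIT2, IRF7, MX2, TRIM22, LY6E, IFITM2, DHX58 and USP18) had no window in the table. The ISRE was searched as GAAA and GAAA with NN between them, N being any base, and the GAS as TTCNNNGAA, each on both strands. The windows below are those of the 6 members with an ISRE match and the largest differences between SB and DMSO, followed by 2 members with an ISRE match and the smallest differences. They are written 5′ to 3′ on the strand of the gene, and capitals mark the ISRE matches, which are written as their reverse complement where they lie on the opposite strand.
IFI6 (chr1:27672143-27672442, minus strand): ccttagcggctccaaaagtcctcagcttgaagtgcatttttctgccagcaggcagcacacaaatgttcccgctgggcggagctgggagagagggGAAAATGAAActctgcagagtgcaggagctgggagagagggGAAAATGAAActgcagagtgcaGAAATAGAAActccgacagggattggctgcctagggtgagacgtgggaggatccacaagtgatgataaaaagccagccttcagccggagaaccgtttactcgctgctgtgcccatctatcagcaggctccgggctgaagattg
MX1 (chr21:41420308-41420607, plus strand): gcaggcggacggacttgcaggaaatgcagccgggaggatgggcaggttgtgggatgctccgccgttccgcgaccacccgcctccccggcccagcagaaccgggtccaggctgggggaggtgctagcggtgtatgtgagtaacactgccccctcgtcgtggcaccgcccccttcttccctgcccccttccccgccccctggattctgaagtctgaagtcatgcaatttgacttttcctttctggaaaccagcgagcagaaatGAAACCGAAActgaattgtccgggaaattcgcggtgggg
ISG15 (chr1:1013247-1013546, plus strand): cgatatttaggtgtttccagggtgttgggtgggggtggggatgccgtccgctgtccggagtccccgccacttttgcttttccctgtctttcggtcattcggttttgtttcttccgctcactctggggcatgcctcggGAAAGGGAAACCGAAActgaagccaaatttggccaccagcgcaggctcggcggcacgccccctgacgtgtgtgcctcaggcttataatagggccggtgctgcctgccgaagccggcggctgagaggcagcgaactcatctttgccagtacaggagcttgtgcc
IFIT1 (chr10:89392373-89392672, plus strand): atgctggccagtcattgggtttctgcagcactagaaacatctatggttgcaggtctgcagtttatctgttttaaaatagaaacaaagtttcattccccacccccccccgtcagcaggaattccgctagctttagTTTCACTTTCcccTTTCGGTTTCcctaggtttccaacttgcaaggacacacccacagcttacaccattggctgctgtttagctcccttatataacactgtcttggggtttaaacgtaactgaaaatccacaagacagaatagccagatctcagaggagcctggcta
OAS3 (chr12:112938224-112938523, plus strand): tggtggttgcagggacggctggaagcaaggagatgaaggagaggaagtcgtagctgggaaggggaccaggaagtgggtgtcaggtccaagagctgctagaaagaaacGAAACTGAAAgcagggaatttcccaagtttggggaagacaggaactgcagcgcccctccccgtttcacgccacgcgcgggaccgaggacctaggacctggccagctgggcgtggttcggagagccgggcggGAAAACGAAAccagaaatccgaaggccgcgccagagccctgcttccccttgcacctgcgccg
PARP9 (chr3:122564251-122564550, minus strand): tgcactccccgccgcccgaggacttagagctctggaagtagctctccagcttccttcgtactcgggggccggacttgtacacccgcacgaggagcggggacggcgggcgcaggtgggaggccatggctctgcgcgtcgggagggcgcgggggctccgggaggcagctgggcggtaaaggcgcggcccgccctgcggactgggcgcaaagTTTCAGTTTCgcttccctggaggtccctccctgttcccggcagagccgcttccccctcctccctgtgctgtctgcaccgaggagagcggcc
HERC5 (chr4:88456869-88457168, plus strand): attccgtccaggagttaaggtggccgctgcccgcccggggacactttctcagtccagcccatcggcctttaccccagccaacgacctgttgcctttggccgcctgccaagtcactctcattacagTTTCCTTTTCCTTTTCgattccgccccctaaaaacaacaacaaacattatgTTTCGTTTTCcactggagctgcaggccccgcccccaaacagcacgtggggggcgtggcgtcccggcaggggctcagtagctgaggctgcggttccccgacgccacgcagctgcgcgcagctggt
IFI27 (chr14:94110486-94110785, plus strand): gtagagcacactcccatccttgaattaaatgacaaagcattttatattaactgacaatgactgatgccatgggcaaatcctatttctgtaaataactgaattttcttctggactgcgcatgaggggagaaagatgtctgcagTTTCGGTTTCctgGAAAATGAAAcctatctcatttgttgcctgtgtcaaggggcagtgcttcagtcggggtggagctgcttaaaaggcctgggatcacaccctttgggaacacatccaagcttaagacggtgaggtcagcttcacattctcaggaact

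An ISRE match was held by 24 of the 39 members (61.5%), against 4.38% of the 27305 genes with a window. A GAS match was held by 12 members (30.8%), against 9.38% of genes. Both motifs were found in 7 members and neither in 10, and in 6 windows of members an ISRE match and a GAS match shared bases. In 13 members a single window held 2 or more ISRE matches. IFI6 held 3, beginning at positions -156, -115 and -93 from the start, and the pair farthest from the start had the same letters, GAAAATGAAA. In the window of ISG15 the matches began at -113 and -107 and overlapped each other. The match in the printed window of MX1 began 11 bases after the start, whereas 47 of the 48 matches in the windows of members began before it. A single site on chromosome 3 (122564332 to 122564341) was shared by PARP9 and DTX3L, which are transcribed away from each other. HERC5 and IFI27, in which the SB and DMSO libraries overlapped, held 3 and 2 matches. Among tested members, the 22 with an ISRE match had a median log2 fold change of 0.66 (from -0.23 to 2.92). The 13 without one had a median of 0.46 (from -0.09 to 1.95). MX1, EPSTI1, IFI44, IFI44L, IFIH1 and DTX3L, with a match, and OAS1, without one, were tested only because their SB mean reached 1 FPKM. Such genes had to stand higher with SB, so the gap between the medians cannot be read as an effect of the motif. A match is only a run of letters and does not show that a factor was bound.

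Levels of the set were spread over a wide range before any comparison. In the DMSO libraries, 32 of the 49 members had a mean above 1 FPKM, 12 had a mean above 10 FPKM and 3 (IFITM3, BST2 and IFITM2) had a mean above 100 FPKM. IFITM3, a membrane protein that hinders fusion of viruses with the cell, stood at 504 and 486 FPKM with DMSO and 651 and 658 FPKM with SB. BST2, or tetherin, which holds budding virus at the cell surface, stood at 456 and 580.3 FPKM with DMSO and 390.2 and 496 FPKM with SB. These high levels were present without inhibitor and the groups overlapped for BST2. At the other end, 9 members stayed under a mean of 1 FPKM in both groups and were not tested.

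To compare the groups, log2(FPKM + 1) was tested with limma in the 14909 genes with a mean of at least 1 FPKM in at least 1 group, and 40 of the 49 members were among them. Of these 40, 8 (OAS1, OAS2, MX1, EPSTI1, IFI44, IFI44L, IFIH1 and DTX3L) passed that filter only through the SB group and so had to stand higher there. Only IFI6 passed an adjusted p of 0.05 (Benjamini-Hochberg over all tested genes), beside 0.134% of all tested genes. At an unadjusted p under 0.05 were 21 members, beside 9.96% of all tested genes, and of the 21, 20 were higher and 1, TRIM22, was lower with SB. Both SB libraries lay above both DMSO libraries in 30 of the 40, beside 21.5% of all tested genes. Both lay below in 1, beside 16% of all tested genes, and in 9 the groups overlapped. In 10 members the log2 fold change reached 1, beside 1.56% of all tested genes. The member just inside that limit was SP110, at 1.04, and the one just outside was SP100, at 0.90. The median log2 fold change of the 40 was 0.58, beside 0.04 for all tested genes, whose 5th to 95th percentiles ran from -0.67 to 0.59. Without the filter on low values, both SB libraries lay above both DMSO libraries in 36 of the 49 members, beside 16.4% of the 29447 rows above 0 in some library, and below in 2 (TRIM22 and RSAD2). When, as a setting chosen after seeing the data, genes were required to have a DMSO mean of at least 1 FPKM, 32 members remained, of which 22 lay above with no overlap, beside 20.1% of the 14360 genes then tested, and 6 reached a log2 fold change of 1, beside 0.94% of them. The median of the 32 was 0.45, beside 0.03 for those genes.

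**Figure D1:**
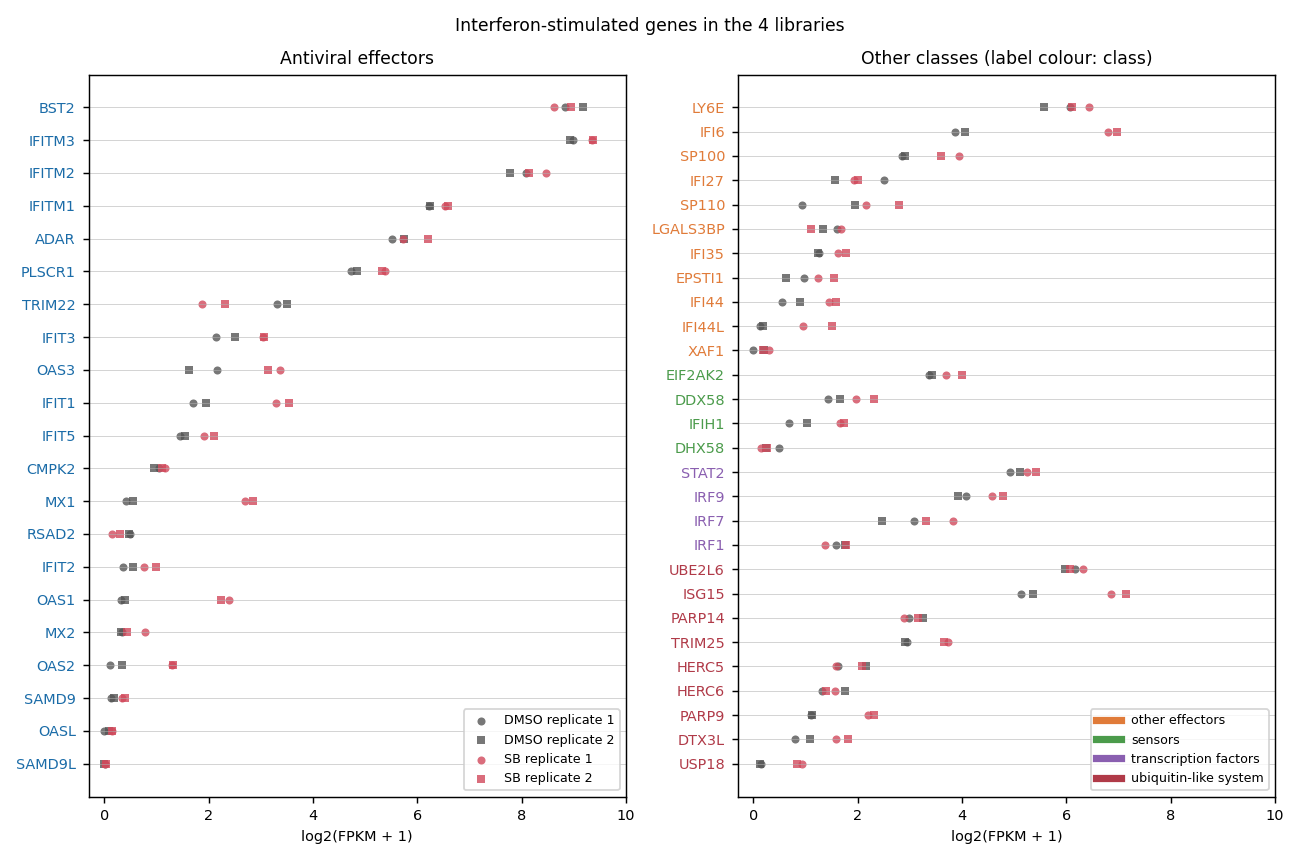
Level of each of the 49 interferon-stimulated genes in each library as log2(FPKM + 1), with circles for replicate 1, squares for replicate 2, grey for DMSO and red for SB, and genes ordered within a class by DMSO mean. The red points of IFI6, ISG15, MX1, OAS1 and IFIT1 lie apart from the grey ones to the right, those of TRIM22 to the left, and those of BST2 and UBE2L6 are mixed with the grey ones.

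Among the antiviral effectors, 15 of 21 were tested, with a median of 0.51 on the log2 scale. Both SB libraries lay above both DMSO libraries in 12, beside 21.5% of all tested genes. The 12 included MX1, OAS1 and OAS2, which passed the filter only through the SB group and had to stand higher there. MX1, a dynamin-like GTPase that traps incoming viral particles, stood at 0.338 and 0.476 FPKM with DMSO and 5.46 and 6.20 FPKM with SB, a log2 fold change of 2.28 (SE 0.20). The DMSO values were thus under 1 FPKM while the SB values were not. Its paralog MX2 (chromosome 21, 41361943 to 41409390), which acts against retroviruses, lies beside MX1 (41420304 to 41459214) and stayed low, at 0.268 and 0.256 FPKM with DMSO and 0.726 and 0.360 FPKM with SB.

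The OAS genes encode enzymes that sense double-stranded RNA and make oligoadenylates that switch on RNA decay. OAS1, OAS3 and OAS2 lie together on chromosome 12 (112906777 to 113011723). OAS1 stood at 0.246 and 0.326 FPKM with DMSO and 4.23 and 3.70 FPKM with SB, a log2 fold change of 1.95 (SE 0.21). OAS3 stood at 3.45 and 2.09 FPKM with DMSO and 9.39 and 7.79 FPKM with SB (1.36, SE 0.25). OAS2 stood at 0.0761 and 0.259 FPKM with DMSO and 1.48 and 1.49 FPKM with SB (1.09, SE 0.23). In all 3 the groups did not overlap, but OAS1 and OAS2 passed the filter only through the SB group and had to stand higher there. OAS3 had the highest level of the 3 in each library. OASL, a relative without the enzymatic activity that lies elsewhere on the chromosome, reached no more than 0.109 FPKM.

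IFIT proteins bind viral RNA and block its translation, and the 4 measured genes lie within 137 kb on chromosome 10. IFIT1 stood at 2.24 and 2.89 FPKM with DMSO and 8.80 and 10.6 FPKM with SB, a log2 fold change of 1.59 (SE 0.20). IFIT3, its binding partner, stood at 3.43 and 4.68 FPKM with DMSO and 7.24 and 7.40 FPKM with SB (0.73, SE 0.20). For IFIT5 the values were 1.72 and 1.93 FPKM and 2.75 and 3.30 FPKM (0.51, SE 0.20). The groups stood apart in these 3, with the widest gap in IFIT1. IFIT2 was under 1 FPKM in each library (0.286 and 0.463 with DMSO, 0.701 and 0.991 with SB). The genes IFIT1, IFIT2 and IFIT3 overlap LIPA on the opposite strand, which had a mean of 27.6 FPKM, and strand use in counting is not stated.

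The IFITM genes, at 3 neighbouring loci on chromosome 11 (307631 to 327537), had high levels and small differences. IFITM2 stood at 270.3 and 218 FPKM with DMSO and 355 and 281 FPKM with SB, and IFITM1 at 73.4 and 74.5 and 91.8 and 94.9 FPKM. Log2 fold changes were 0.40 for IFITM3, 0.38 for IFITM2 and 0.33 for IFITM1, and none passed the adjustment. The groups did not overlap in any of the 3, yet the SB mean was only 1.32 times the DMSO mean for IFITM3, 1.30 times for IFITM2 and 1.26 times for IFITM1. The annotated locus of IFITM1 lies inside that of IFITM2, and the genes are close paralogs, so their separate levels are uncertain.

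TRIM22, a ubiquitin ligase that restricts several viruses, ran the other way. It stood at 8.97 and 10.3 FPKM with DMSO and 2.65 and 3.98 FPKM with SB, a log2 fold change of -1.32 (SE 0.23, 95% interval -1.91 to -0.73, limma adjusted p = 0.169). Both SB libraries lay below both DMSO libraries, and TRIM22 was the only tested member of which this was true. It overlaps TRIM5 on the opposite strand, another antiviral ligase, which stood at 23.6 and 31.5 FPKM with DMSO and 16.2 and 21.5 FPKM with SB (-0.52). The loci share 47401 bases, and strand use in counting is not stated.

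Of the remaining antiviral effectors, PLSCR1, a membrane-associated scramblase, stood at 25.5 and 27.9 FPKM with DMSO and 40.8 and 39.1 FPKM with SB (0.56, SE 0.16). ADAR, which edits adenosines in double-stranded RNA, stood at 44.7 and 52.4 FPKM and 52.0 and 72.8 FPKM, with SB replicate 1 below DMSO replicate 2 (0.34). CMPK2, a mitochondrial nucleotide kinase, was close to the filter at 1.08 and 0.946 FPKM and 1.24 and 1.15 FPKM (0.13). Its neighbour RSAD2, or viperin, which makes a chain-terminating nucleotide, was lower in both SB libraries but at most 0.404 FPKM in each library. SAMD9, a restriction factor of poxviruses, reached 0.314 FPKM and its paralog SAMD9L 0.0211 FPKM.

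Among the other effectors, 10 of 11 were tested, with a median of 0.69 on the log2 scale. The groups stood apart in 8, each higher with SB, beside 21.5% of all tested genes. The 8 included EPSTI1, IFI44 and IFI44L, which passed the filter only through the SB group and had to stand higher there. IFI6, a small membrane protein of mitochondria and endoplasmic reticulum, rose with SB, standing at 13.5 and 15.7 FPKM in DMSO and at 111 and 124 FPKM in SB libraries, a log2 fold change of 2.92 (SE 0.17, 95% interval 2.48 to 3.37, limma adjusted p = 0.0325). Only 10 of the 14909 tested genes had a higher log2 fold change, although with a pseudocount of 0.1 in place of 1 MX1, at 3.56, and OAS1, at 3.40, stood above IFI6, at 3.00. IFI6 was one of the genes that led to the choice of the set, and its call was lost without the filter on low values (limma adjusted p = 0.301) and on removal of any single library (0.0870 to 0.171). IFI27, which belongs to the same protein family, stood at 4.69 and 1.96 FPKM with DMSO and 2.83 and 2.99 FPKM with SB (-0.07, 95% interval -0.98 to 0.85), and here the DMSO libraries enclosed both SB libraries.

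IFI44L and IFI44 lie together on chromosome 1 (78619922 to 78664078) and encode related proteins of little known function. IFI44L stood at 0.0901 and 0.139 FPKM with DMSO and 0.940 and 1.84 FPKM with SB (1.07, SE 0.29). IFI44 stood at 0.466 and 0.859 FPKM with DMSO and 1.73 and 1.99 FPKM with SB (0.79, SE 0.24). Both genes were under 1 FPKM in each DMSO library, and the SB libraries of IFI44L differed from each other by more than the DMSO libraries did.

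SP100 and SP110 encode nuclear body proteins and are neighbours on chromosome 2. SP100 stood at 6.23 and 6.46 FPKM with DMSO and 14.4 and 11.1 FPKM with SB (0.90, SE 0.19). SP110 stood at 0.904 and 2.85 FPKM with DMSO and 3.49 and 5.94 FPKM with SB (1.04, SE 0.42). The 95% interval of SP110, -0.06 to 2.15, included 0, since its replicates were far apart in both groups. EPSTI1, named for epithelial-stromal interaction, stood at 0.958 and 0.542 FPKM and 1.37 and 1.91 FPKM (0.60, SE 0.25). IFI35, a partner of NMI, had a log2 fold change of 0.46 and LY6E, a lipid-anchored surface protein, one of 0.45. For LGALS3BP, a secreted glycoprotein, the value was -0.07 and the groups overlapped. XAF1, a proapoptotic gene, was not above 0.237 FPKM in any library.

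Among the sensors, 3 of 4 were tested. Both SB libraries lay above both DMSO libraries in each of the 3, beside 21.5% of all tested genes. IFIH1, 1 of the 3, passed the filter only through the SB group and had to stand higher there. IFIH1, the sensor of long double-stranded RNA also called MDA5, stood at 0.614 and 1.05 FPKM with DMSO and 2.17 and 2.32 FPKM with SB (0.84, SE 0.23). DDX58, which encodes the 5′-triphosphate RNA sensor RIG-I, stood at 1.68 and 2.14 FPKM and 2.90 and 3.997 FPKM (0.60, SE 0.23). EIF2AK2, the kinase PKR that halts translation upon binding double-stranded RNA, stood at 9.32 and 9.79 FPKM and 12.0 and 14.9 FPKM (0.44, SE 0.18). The differences were all under 1 on the log2 scale. DHX58, or LGP2, a regulator of the other sensors, was at or under 0.402 FPKM with overlapping groups.

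All 4 transcription factors were tested, with a median log2 fold change of 0.50. IRF9, the DNA-binding partner of STAT2, stood at 15.9 and 14.1 FPKM with DMSO and 22.9 and 26.7 FPKM with SB (0.69, SE 0.18). IRF7, which drives transcription of type I interferon genes, stood at 7.44 and 4.51 FPKM with DMSO and 13.2 and 8.86 FPKM with SB (0.79, SE 0.30). STAT2 stood at 29.1 and 33.4 FPKM and 36.8 and 41.5 FPKM (0.32, SE 0.17). In these 3 both SB libraries lay above both DMSO libraries, beside 21.5% of all tested genes, although replicate 1 of IRF7 exceeded replicate 2 in both groups. IRF1, best known as a target of interferon gamma, stood at 1.99 and 2.37 FPKM and 1.59 and 2.44 FPKM with overlapping groups (-0.09).

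ISG15 is a ubiquitin-like protein that is attached to other proteins through enzymes that include UBE2L6 and HERC5, and it is removed by USP18. ISG15 itself stood at 33.9 and 39.8 FPKM with DMSO and 115 and 139 FPKM with SB, a log2 fold change of 1.76 (SE 0.19). The conjugating enzyme UBE2L6 stood at 71.0 and 61.9 FPKM with DMSO and 78.9 and 65.9 FPKM with SB (0.12, 95% interval -0.36 to 0.59). The ligase HERC5 stood at 2.07 and 3.44 FPKM and 2.00 and 3.23 FPKM (-0.05, 95% interval -0.82 to 0.72). The groups were thus apart for the modifier and overlapped for UBE2L6 and HERC5. USP18, which also restrains signaling at the type I receptor, was higher in both SB libraries but below the filter, at 0.111 and 0.0924 FPKM with DMSO and 0.909 and 0.793 FPKM with SB. HERC6, the neighbour of HERC5 on chromosome 4, stood at 1.49 and 2.37 FPKM and 1.97 and 1.63 FPKM (-0.05).

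PARP9, DTX3L and PARP14 lie within 203 kb on chromosome 3. PARP9 and DTX3L form a complex that joins ADP-ribosylation with ubiquitin ligase activity, and their annotated 5′ ends overlap by 340 bases on opposite strands. PARP9 stood at 1.14 and 1.17 FPKM with DMSO and 3.56 and 3.95 FPKM with SB (1.14, SE 0.19). DTX3L stood at 0.731 and 1.14 FPKM with DMSO and 1.99 and 2.51 FPKM with SB (0.75, SE 0.23). PARP14, an ADP-ribosyltransferase, stood at 6.91 and 8.57 FPKM and 6.43 and 7.94 FPKM (-0.09, 95% interval -0.62 to 0.43). The groups were apart for the partners PARP9 and DTX3L and overlapped for PARP14, which held an ISRE match too. TRIM25, a ubiquitin ligase that acts on RIG-I, stood at 6.71 and 6.50 FPKM and 12.3 and 11.6 FPKM (0.77, SE 0.16). In the ubiquitin-like system as a whole, 8 of 9 members were tested, with a median of 0.44. The groups stood apart in 4, each higher with SB, beside 21.5% of all tested genes. The 4 included DTX3L, which passed the filter only through the SB group and had to stand higher there.

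**Figure D2:**
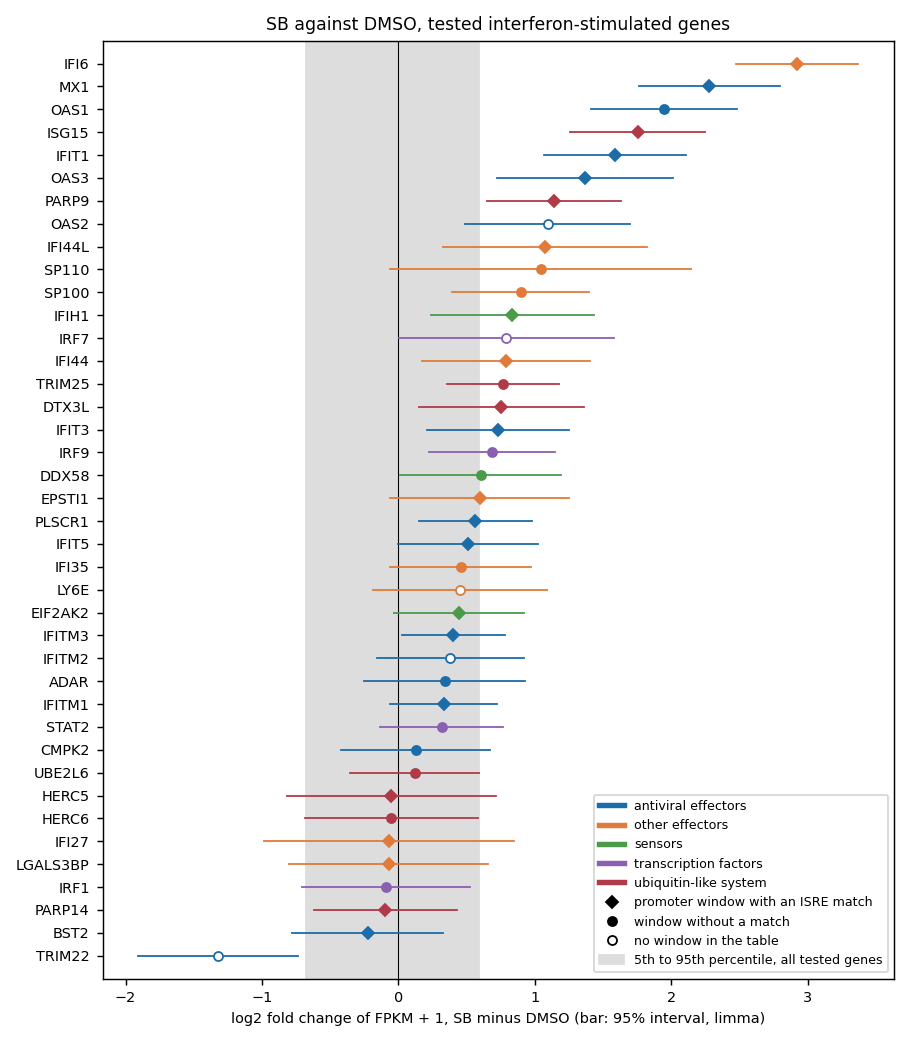
Log2 fold change of FPKM + 1, SB minus DMSO, for the 40 tested members with the 95% interval from limma, coloured by class, with diamonds for members whose promoter window held an ISRE match, circles for those without and open circles for those with no window in the table. On this scale, with a pseudocount of 1, IFI6 stands at the top with 2.92 and TRIM22 at the bottom with -1.32, and the grey band from -0.67 to 0.59 spans the 5th to 95th percentiles of all tested genes.

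Because libraries also differed by number, the fold changes were computed within each number. Medians of the 40 tested members were 0.48 in replicate 1 and 0.56 in replicate 2, beside 0.05 and 0.03 for all tested genes. The 40 include the 8 members that passed the filter only through the SB group, so their SB mean had to be higher. Of the 49 members, 38 were higher with SB in both numbers and 5 (BST2, RSAD2, TRIM22, HERC5 and PARP14) were lower in both. Among all tested genes, 40.9% were higher in both. The sets are unlike, since the 38 include the untested IFIT2, MX2, OASL, SAMD9, SAMD9L and USP18, and RSAD2 was untested too. For MX1 the values within the numbers were 2.27 and 2.29, for OAS1 2.07 and 1.82, for ISG15 1.73 and 1.78 and for IFIT1 1.60 and 1.58. These genes differed by similar amounts in both numbers, but MX1 and OAS1 passed the filter only through the SB group. MX1 was also among the genes that led to the choice of the set. IFI27 gave -0.57 and 0.43, the widest disagreement in sign among the tested members, and HERC6 gave 0.25 and -0.36. The mitochondrial share of the FPKM sum also followed the number rather than the treatment, with 5.88% and 6.64% in replicate 1 against 9.92% and 10.2% in replicate 2.

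**Figure D3:**
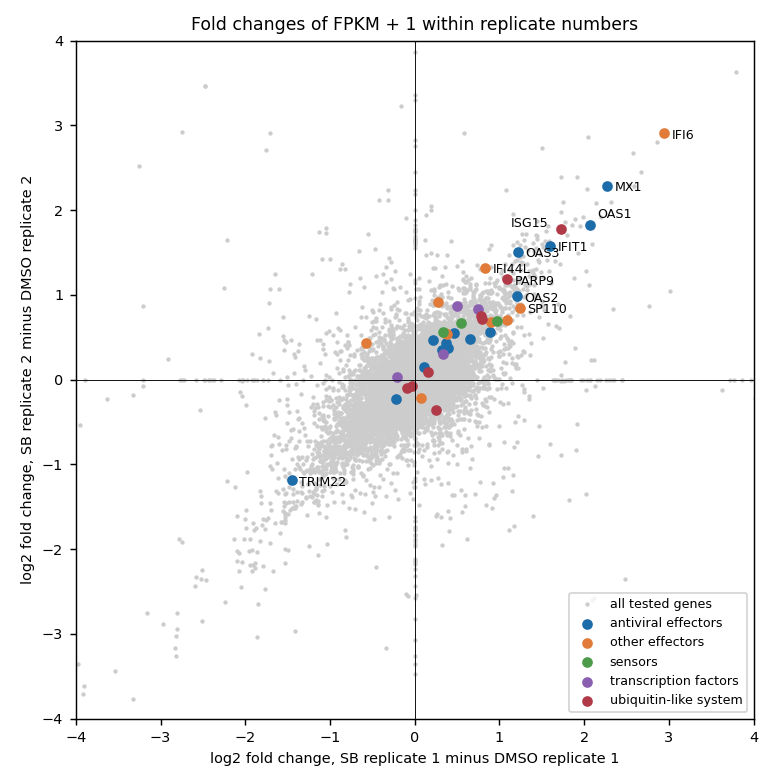
Log2 fold change of FPKM + 1 within replicate 1 (horizontal axis) and within replicate 2 (vertical axis), with tested genes in grey and members coloured by class, and members named where that value, pooled, was 1 or more in size. The named members lie near the diagonal, with TRIM22 the only one at lower left, and 40 of the 14909 tested genes fall outside the axes, which end at 4 on either side.

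Upstream of these genes, the table showed almost no transcripts of interferons. Of 22 interferon genes, 18 were listed at 0 in all 4 libraries, among them IFNB1, and the highest value was 0.107 FPKM, for IFNE in DMSO replicate 2. A value listed at 0 can be a failed estimate, and fragment counts were not used here. Of 9 receptor and kinase genes, 8 were tested and none passed the adjustment or had an unadjusted p under 0.05, with a median log2 fold change of -0.03. IFNAR1 stood at 14.6 and 13.8 FPKM with DMSO and 16.1 and 16.2 FPKM with SB (0.17, 95% interval -0.24 to 0.58). Its partner IFNAR2 stood at 14.5 and 16.5 FPKM and 10.1 and 13.4 FPKM (-0.38, 95% interval -0.91 to 0.15). The groups thus lay apart in opposite directions for the receptor chains, and both intervals included 0. The kinases JAK1 and TYK2 had log2 fold changes of -0.07 and 0.01, and the receptor chains IFNGR1, IFNGR2 and IL10RB had -0.10, -0.11 and 0.15. IFNLR1, the receptor chain for interferon lambda, was at most 0.209 FPKM and was not tested.

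Genes that lead to interferon production and genes that restrain its signaling were also read from the fit. None of the 10 tested inducers passed the adjustment, and the largest difference was that of TMEM173, the cytosolic DNA adaptor STING, which stood at 30.2 and 19.0 FPKM with DMSO and 55.6 and 39.8 FPKM with SB (0.94, SE 0.30). IKBKE, a kinase of this branch, had 0.55, and MYD88, an adaptor of Toll-like receptors, had 0.46. None of the 9 negative regulators passed either. PTPN6, a phosphatase of blood cells, stood at 21.6 and 18.1 FPKM with DMSO and 56.4 and 43.9 FPKM with SB (1.29, SE 0.21, limma adjusted p = 0.151). SOCS3, a feedback inhibitor of cytokine receptors, stood at 31.0 and 22.3 FPKM and 12.8 and 10.7 FPKM (-1.11, SE 0.23, limma adjusted p = 0.224). SOCS1, the member of that family best known for type I interferon, had 0.07.

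A list of 24 further type I interferon targets and one of 12 interferon gamma targets, neither part of the set, gave other values. Of the 24, 21 were tested and none passed the adjustment, with a median log2 fold change of 0.08. At an unadjusted p under 0.05 in limma were 4 of the 21, all higher with SB, beside 9.96% of all tested genes. The largest were PARP12 at 0.88, LAP3 at 0.60 and SAMHD1 at 0.53, and PNPT1 stood at -0.53. The groups lay apart with SB above in 7 of the 21, beside 21.5% of all tested genes, and with SB below in 4, beside 16%. Of the interferon gamma targets, 4 were tested, and GBP4 stood at 9.77 and 11.6 FPKM with DMSO and 4.87 and 6.76 FPKM with SB (-0.79). GBP2 had -0.58, WARS 0.29 and GBP5 0.05, and the chemokine genes CXCL9, CXCL10 and CXCL11 were at most 0.129 FPKM in each library.

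**Figure D4:**
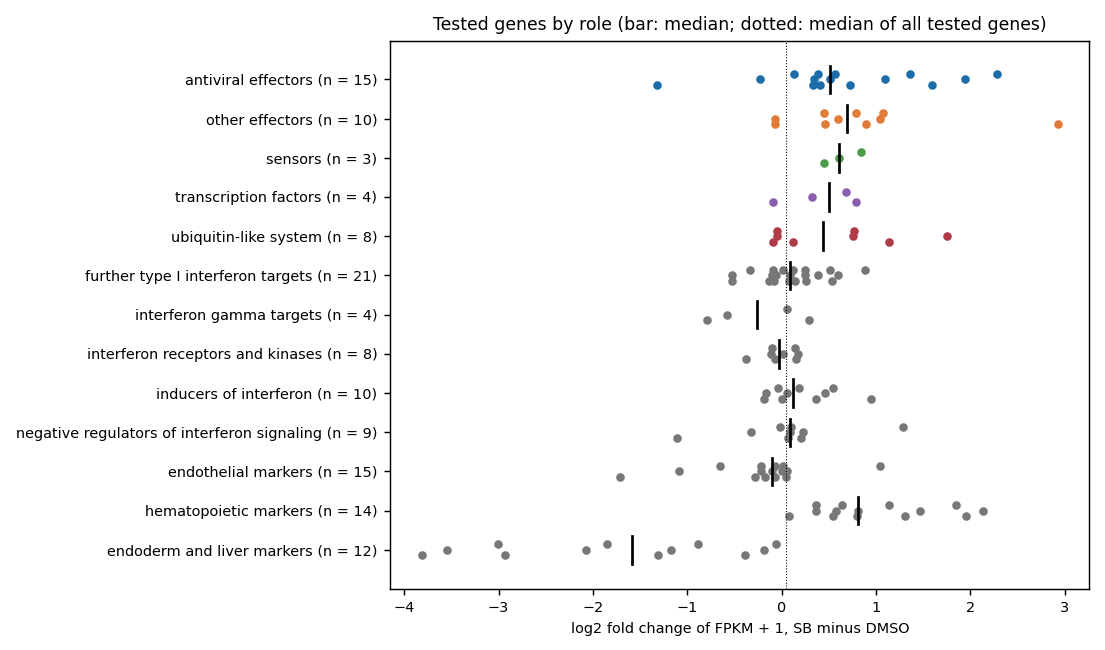
Log2 fold change of FPKM + 1, SB minus DMSO, for each tested gene (points) and the median (bar) in the 5 classes of members, in other lists of the interferon pathway and in marker lists, with the number tested in each, and a dotted line at the median of all tested genes. The members' class medians lie between 0.44 and 0.69, the further type I targets at 0.08 and the receptors and kinases at -0.03. The hematopoietic markers lie at 0.80 and the endoderm and liver markers at -1.58. Members that passed the filter only through the SB group are included. With a DMSO mean of at least 1 FPKM required instead, the class medians were between 0.12 and 0.52 and the further type I targets at 0.08.

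Markers of cell types moved with the treatment beside these genes. Among all 14909 tested genes, 8376 had a positive log2 fold change and 9.96% had an unadjusted p under 0.05. Of 15 hematopoietic markers, 14 were tested and all 14 had a positive log2 fold change, with a median of 0.80, none passing the adjustment and 10 at an unadjusted p under 0.05. Their summed level was 568 and 487 FPKM in the DMSO libraries and 1008 and 896 FPKM in the SB libraries, while PTPRC, which encodes CD45, was at most 0.202 FPKM. Of 15 endoderm and liver markers, 12 were tested, all with a negative log2 fold change, and 4 fell at an adjusted p under 0.05 in limma, a count that was 0 without the filter on low values (10 of 15 at an unadjusted p under 0.05) and 0 on removal of any single library (8 to 10 genes). Their sums were 347 and 351 FPKM with DMSO against 81.2 and 52.3 FPKM with SB, and ALB was at most 0.481 FPKM. These sums include SOX17, which the study describes as keeping endothelial identity. SOX17 stood at 53.3 and 17.5 FPKM with DMSO and 49.3 and 17.3 FPKM with SB (-0.06). The sums of the 15 endothelial markers were 2898 and 2538 FPKM with DMSO and 2739 and 2396 FPKM with SB, with none of the 15 at 0 in any library. None passed the adjustment, 10 had a negative log2 fold change, and 4 had an unadjusted p under 0.05: ENG at -1.72, ROBO4 at -1.09, FLT1 at -0.66 and CLDN5 at 1.04. In bulk RNA, a change in the share of a cell type and a change in RNA per cell cannot be told apart. Whether the makeup of the cells had a part in the levels of the interferon-stimulated genes was not tested. For the 20 housekeeping genes the median was 0.12 on the log2 scale, with none passing the adjustment and 1, ACTB, at an unadjusted p under 0.05.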

How the data were processed

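RNA-seq of 4 libraries (2 DMSO and 2 SB, grouped by sample title) was analysed. The authors deposited FPKM values per gene, scaled to gene length and library size. The submitters' processing notes name BWA, Bowtie, RSEM and the build hg19, without their roles. The loci in the table instead fit GRCh38: 95.5% of identifiers had the same version in GENCODE release 29, and 99.8% of these the same position (42 of the 49 members), so coordinates are given on GRCh38, counted from 1.

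No counts were used here, so no count test was run. Total depth is unknown. Relative depth was estimated from the smallest steps of low values (steps within 2% of a whole number), on which between 71.3% and 96.0% of the genes examined lay, and is therefore approximate. Genes with a mean of at least 1 FPKM in at least 1 group were tested on log2(FPKM + 1) with limma 3.58.1 in R 4.3.3 (empirical Bayes with a trend, group as the only term, two-sided), adjusted by Benjamini-Hochberg over all tested genes at 0.05. The pseudocount of 1 understates the change of low genes, and all fold changes are on this scale. The fit was tested on simulated data. An exact permutation test of 2 against 2 libraries cannot go below 0.333 and was not used.

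The members, the classes and the 10 lists of pathway, marker and housekeeping genes were chosen with earlier results of these data known, so no test over the members was made. All 49 members were accounted for. Values in every library were given for members whose log2 fold change was 0.5 or more in size and whose higher group averaged 1 FPKM or more, and for tested sensors, transcription factors and ISG15-system genes; IFIT5 was just inside and IFI35 just outside that limit. Of the other lists, up to 4 genes with the largest differences, and 8 of the 9 receptors and kinases, were named. Additional genes (the remaining members, PECAM1, TRIM5, SOCS1, LIPA, PTPRC, ALB, SOX17, ACTB and the chemokines) were added for their role or position, after their values were seen. Promoter windows were read from RefSeq by symbol.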

Additional observations from a re-analysis of the deposited data

How the results depend on the processing

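The alternatives were no filter on low values, a limit of 5 FPKM reached in 2 libraries, a pseudocount of 0.1, quantile normalization, upper-quartile scaling, the replicate number as a block, and the removal of each library. A DMSO mean of at least 1 FPKM was added after seeing the data. Without the filter 0 genes and 0 members passed in limma, with 22 of 49 members at an unadjusted p under 0.05, beside 9.30% of all genes (IFI6 adjusted p = 0.301), and the ubiquitin-like median was 0.75. With at least 5 FPKM in 2 libraries, 17 of 22 members lay above with no overlap, beside 22.6% of all genes, and the medians were 0.90 for other effectors and 0.69 for transcription factors, since fewer genes were tested. IFIT1, IFIT3, MX1 and OAS3 passed this limit only through the SB libraries and so had to lie above. TRIM22 passed it only through the DMSO libraries and had to lie below. With a pseudocount of 0.1 the medians were 1.02 for other effectors and 0.81 for sensors, 14 members reached a log2 fold change of 1 (beside 3.29% of all genes), and MX1 (3.56), OAS1 (3.40), OAS2 (2.66) and IFI44L (2.74), among others, moved by over 1.5 times. The 14 included all 8 members that passed the filter only through the SB group and had to stand higher there. Quantile normalization gave 31 genes and 2 members, IFI6 and MX1 (adjusted p = 0.0456). With a DMSO mean of at least 1 FPKM the medians were 0.46 for other effectors and 0.12 for the ubiquitin-like system. Removing single libraries left 0 to 14 genes and 0 members passing (11 to 17 members at an unadjusted p under 0.05, beside 6.11% to 9.40% of all genes), with IFI6 at 2.83 to 3.02 (adjusted p from 0.0870 to 0.171), and moved the sensor median between 0.43 and 0.78. The lowest gene count, 0, came without DMSO replicate 1. For the other settings the cause was not tested.

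With the replicate block, 1564 of the 14909 tested genes and 19 of the 40 tested members (18 higher, 1 lower) passed. In the other lists, 11 of 14 hematopoietic, 8 of 12 endoderm and liver, 5 of 15 endothelial and 4 of 20 housekeeping genes passed. So did 3 of 21 further type I targets, 2 of 10 inducers, 2 of 9 negative regulators and 1 of 4 interferon gamma targets. Of the 8 tested receptors and kinases 0 passed, and 1 had an unadjusted p under 0.05, beside 30.4% of all tested genes in this setting. With 2 pairs, deviations from the group means correlated at 0.528, a value that 2 libraries a group make the same for both numbers, and the labels do not say what a number shares, so the pairing is not established. The direction of IFI6, MX1, OAS1, ISG15, IFIT1 and TRIM22 was the same in each setting that tested them. IFI6 and MX1 led to the choice of the set, and MX1 and OAS1 passed the main filter only through the SB group. Their direction was thus in part selected. Signs changed only on removal of single libraries, in UBE2L6 (to -0.01 without SB replicate 1) and in 6 members near 0: HERC5 0.22 and 0.20, HERC6 0.17 and 0.04, IFI27 0.40, IRF1 0.12, LGALS3BP 0.06 and 0.21, and PARP14 0.04 and 0.04. The total depth is unknown, so the counting error of members under 1 FPKM could not be given.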
